A study of Mus musculus with 6 samples.

Results

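Isoforms annotated as targets of nonsense-mediated decay (NMD) were examined in the prefrontal cortex of male C57BL/6 mice. The PS_high mice received 50 mg/kg body weight of PS NPs (polystyrene nanoparticles) by gavage each day for 6 months, and the control mice received water (0 mg/kg). Each group had 3 samples, the mice were sampled at an age of 30 weeks after a start at 5 weeks, and all were of the same strain without an engineered allele in the labels. The NMD isoforms were the annotated rows of the transcript table that carry the transcript type nonsense-mediated decay. There were 7178 of them, in 4572 genes, among 141448 annotated isoforms and 175010 isoforms in all. The type is the annotation's reading of the transcript structure, and no measurement of RNA decay enters it.

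NMD is a surveillance pathway that degrades transcripts whose stop codon lies upstream of an exon junction. The helicase Upf1 and its partners recognise a ribosome that terminates there, helped by the exon junction complex that splicing leaves on the RNA. Many genes of splicing factors make such isoforms by including a "poison exon" with an early stop codon, and lower their own protein that way. In the brain, NMD isoforms of synaptic and RNA-binding protein genes are produced in a developmentally regulated manner.

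Most host genes had few NMD isoforms. There were 2986 genes with 1, 998 with 2 and 588 with 3 or more, and the largest numbers were in Slc4a7 with 18, Tmem234 with 13, and Oprm1 and Pde9a with 11 each. An annotated protein coding isoform stood beside them in 4490 of the genes, and 82 genes had none. NMD isoforms had a median of 7 exons and 1252 bases. Protein coding isoforms had a median of 6 exons and 1816 bases, and retained intron isoforms had 3 exons and 881 bases. NMD isoforms were thus multi-exon transcripts that were shorter than coding ones.

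The estimated counts of annotated isoforms summed to 27385680 to 31753685 in PS_high libraries and 30044017 to 34299653 in control libraries. PS_high 1 stood apart on the first principal component of the 2000 most variable genes, with a score of -84.1 against -7.72 to 32.6 in the other libraries. Summed markers of 10 cell types overlapped between the groups for every type. The widest ranges were those of choroid plexus markers, with 41.7 to 1379 CPM (depth-scaled counts) in PS_high and 23.9 to 552 CPM in control. The cortical neuron markers summed to 2637 to 2825 CPM in PS_high and 2292 to 2725 CPM in control. In bulk tissue, fewer cells of a type and less RNA per cell cannot be told apart. The labels name separate samples, so p-values measure the spread between these samples.

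Many NMD isoforms had few or no counts. No count was assigned in any library to 2997 of the 7178 (41.8%), 898 (12.5%) had at least 10 counts in all 6 libraries, and 8 had at least 1000 counts in all 6. Protein coding isoforms were at 0 in all 6 libraries nearly as often (36.9%), and 23.5% of them had at least 10 counts in all 6. For retained introns these shares were 9.44% and 48.0%. An estimated count divides reads shared by isoforms of a gene between them, and for NMD isoforms this division was often uneven between libraries of one group. Of 1458 NMD isoforms with at least 100 counts in some library, 357 (24.5%) had 0 counts in 1 PS_high library and at least 100 in another. The same held for 346 (23.7%) among control libraries. Among protein coding isoforms the shares were 18.7% in PS_high and 17.7% in control, and among retained introns 5.21% and 4.82%, so the on-or-off pattern within a group was commonest in NMD isoforms.

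NMD isoforms held 1.59%, 1.51% and 1.42% of the annotated counts in the PS_high libraries, against 1.57%, 1.55% and 1.62% in the control libraries. The ranges overlapped, with means of 1.51 ± 0.0861% in PS_high and 1.58 ± 0.0368% in control (SD, n = 3 each; exact two-sided permutation p = 0.3). The difference of PS_high minus control was -0.0747 percentage points, and with 1 library left out it lay between -0.117 without PS_high 1 and -0.0306 without PS_high 3. With FPKM, which corrects for transcript length, NMD isoforms held 0.864%, 0.781% and 0.770% in PS_high, all below the 0.891%, 0.925% and 0.879% in control (exact two-sided permutation p = 0.1, the smallest that 3 against 3 samples allow). The FPKM share of protein coding isoforms likewise did not overlap, at 29.5 ± 0.678% in PS_high and 31.3 ± 0.755% in control (SD, n = 3 each), and its part in the NMD result was not tested.

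Fewer NMD isoforms were detected in PS_high, at 10 counts by an amount within the spread of the libraries. At least 10 counts were found for 1864, 1938 and 1999 NMD isoforms in PS_high, against 1974, 2061 and 2090 in control (exact two-sided permutation p = 0.2). At least 100 counts were found for 668, 650 and 700 in PS_high, against 717, 734 and 754 in control, where the groups did not overlap (exact two-sided permutation p = 0.1). Annotated depth moved the same way, with means of 29643470 in PS_high and 31932326 in control. With counts scaled to the smallest library, by totals over all isoforms, the difference at 10 counts was -39.3 isoforms, against -108 unscaled. The numbers at 100 counts were not scaled.

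**Figure D1:**
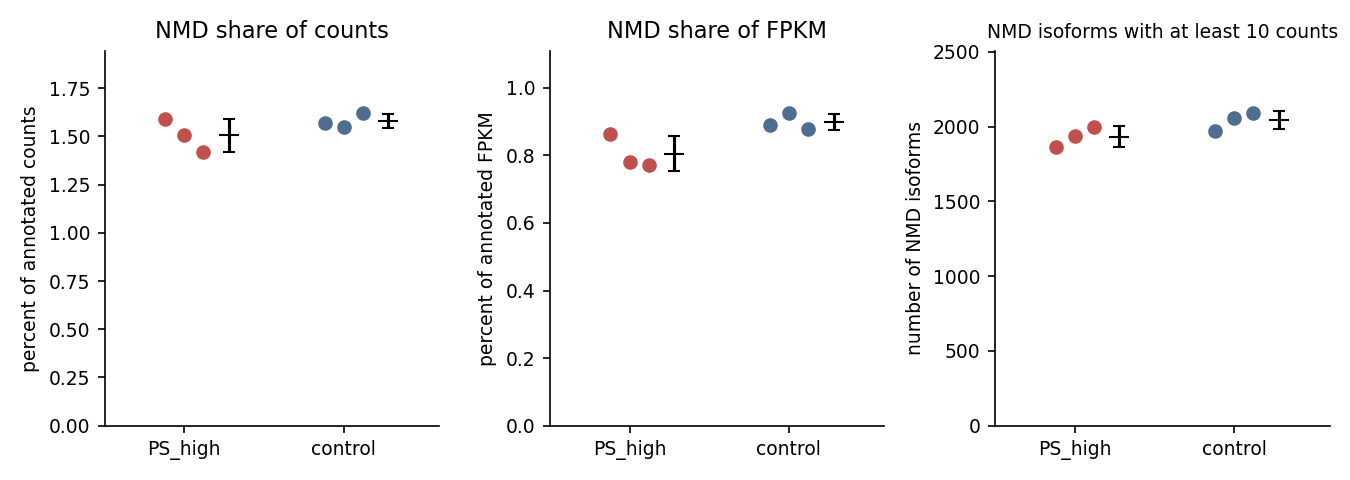
Percent of annotated estimated counts on NMD isoforms, percent of annotated FPKM on them, and number of NMD isoforms with at least 10 counts, with 1 point per library, PS_high left and control right, and the mean with its SD (n = 3) beside each group. The count share ran from 1.42% to 1.59% in PS_high and from 1.55% to 1.62% in control, and the FPKM share was the panel in which the groups did not overlap.

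A few isoforms made up much of this total. The 10 NMD isoforms of highest mean count held 32.8%, 27.6% and 25.4% of all NMD counts in PS_high, against 30.3%, 24.5% and 28.8% in control. A single isoform of Atp2a2, the calcium pump SERCA2 of the endoplasmic reticulum, had 79079, 68164 and 65986 counts in PS_high, against 78400, 60036 and 87552 in control. It is 5674 bases long, longer than the coding isoforms of the gene that had counts, at 3984 and 4486 bases. It carried 95.6 ± 1.84% of the annotated Atp2a2 counts in PS_high and 96.9 ± 1.71% in control (SD, n = 3 each), so nearly all annotated counts of this abundant pump are under the NMD label.

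Mobp, a myelin protein gene of oligodendrocytes, had a steady NMD isoform with 10661, 10025 and 10172 counts in PS_high, against 12344, 10525 and 14304 in control. That isoform held 79.9 ± 3.28% of the gene's counts in PS_high and 82.0 ± 0.552% in control. Pum2, which encodes an RNA-binding repressor of translation, had 25644, 17160 and 10487 counts on its abundant NMD isoform in PS_high, against 23018, 20298 and 24322 in control. Its lowest value, in PS_high 3, went with 11571 counts on the coding isoform ENSMUST00000111123, which had 0 in the other 5 libraries. Prkcb, a protein kinase C gene, switched between libraries without regard to group. Its NMD isoform had 17675, 60 and 15 counts in PS_high, against 17903, 6400 and 16 in control. The coding isoform ENSMUST00000064989 had 7, 21638 and 19383 counts in PS_high, against 146, 17511 and 25819 in control, high where the NMD isoform was low. None of these 4 isoforms passed the edgeR test of single isoforms, with adjusted p = 1.0 for each and log2 fold changes of 0.06 for Atp2a2, -0.12 for Mobp, -0.22 for Pum2 and -0.44 for Prkcb. Single libraries set the sign of 3 of them. Without control 2 the Atp2a2 value was -0.07, and without PS_high 3 the Pum2 value was 0.05. The Prkcb value was 0.13 without PS_high 2, 0.14 without PS_high 3 and 0.92 without control 1.

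Within genes, the NMD share of a gene is the percent of its annotated counts on NMD isoforms. It was followed in 3524 genes with coding and NMD isoforms and a mean total of at least 100 counts. The median of the mean share was 1.56%. The share was 0 in 854 genes, above 0 and under 1% in 744, 1% to 10% in 1016, 10% to 50% in 724 and at least 50% in 186. In 72 genes it was at least 50% in all 6 libraries, among them Dmtf1, Cbarp and Ilk, whose protein links integrins to actin. Another was Atpaf1, an assembly factor of the mitochondrial ATP synthase, which was at 100% in every library. The median over genes was 0.178%, 0.305% and 0.343% in PS_high, against 0.306%, 0.399% and 0.396% in control. The groups overlapped (exact two-sided permutation p = 0.2).

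**Figure D2:**
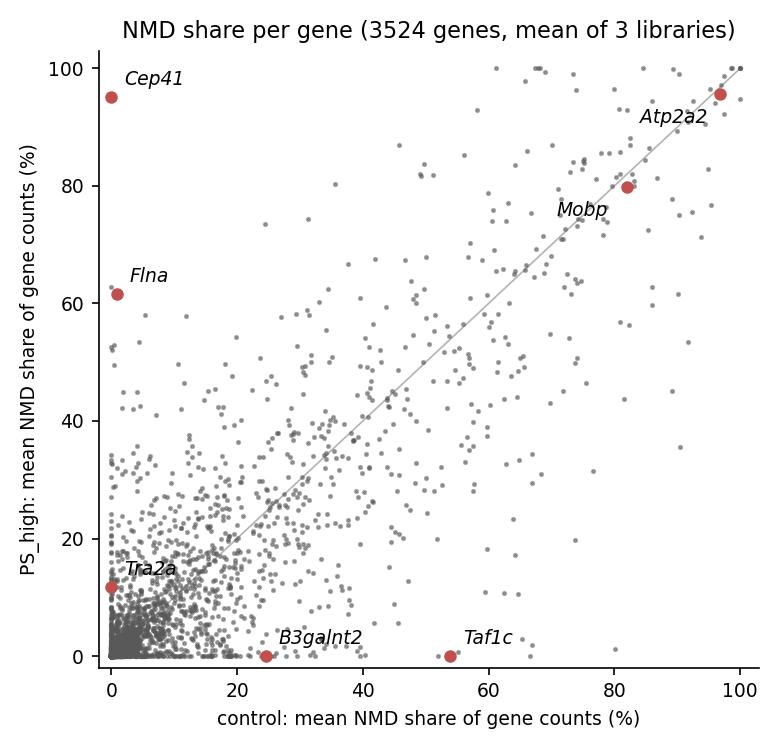
Mean NMD share of a gene's annotated counts in PS_high (vertical axis) against control (horizontal axis), in percent, for 3524 genes with 1 grey point each, and named genes in red. Atp2a2 and Mobp lie near the line of equal shares, while Cep41 and Flna lie far above it and Taf1c and B3galnt2 on the axis where PS_high is 0.

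One NMD isoform passed the threshold of an adjusted p under 0.05, that of Tra2a. edgeR tested 1072 NMD isoforms, those averaging 0.5 FPKM or more, among 69333 isoforms of all kinds. It called 1 of them (0.0933%), against 3 of all isoforms (0.00433%). A second edgeR fit tested the share of an isoform in its gene, for 2388 NMD isoforms among 45925 annotated ones. It also called 1 NMD isoform (0.0419%), the same Tra2a isoform, against 6 of all (0.0131%). The number called depended on the tool. limma on log2 FPKM called 0 NMD isoforms at either pseudocount (0.1 or 1), against 22 and 20 of all isoforms. DESeq2 called 24 NMD isoforms (2.24%, against 1.41% of all). For shares, diffSpliceDGE in edgeR called 27 (1.13%, against 0.503%) and limma on logit shares called 15 (0.628%, against 0.261%).

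Tra2a encodes a serine- and arginine-rich splicing activator, one of a pair of Transformer-2 homologues. Its NMD isoform ENSMUST00000203820 has 9 exons and 2090 bases and lies on the minus strand of chromosome 6 from 49243924 to 49264011, as the deposited table gives it, in a genome build not given in the sources used here. It had 535, 433 and 373 counts in the PS_high libraries, against 1, 1 and 1 in the control libraries. Every PS_high library thus held at least 373 counts and every control library a single one. Per length, the levels were 3.02 ± 0.506 FPKM in PS_high and 0.00159 ± 0.00116 FPKM in control (SD, n = 3 each). A count carried 0.00627 to 0.00756 FPKM in PS_high but 0.00037 to 0.00269 FPKM in control, so the control values of 1 stand for less than a full count on the PS_high scale. The isoform rose by a fitted log2 fold change of 8.76 ± 0.36 (SE; edgeR adjusted p = 0.031), whose size rests on these single counts.

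As a share of annotated Tra2a counts, the isoform held 13.7%, 11.6% and 10.1% in PS_high, against 0.021%, 0.034% and 0.0219% in control. This share rose by 8.71 ± 0.33 on the log2 scale (SE; edgeR adjusted p = 0.0198). The annotated total of the gene was 3909, 3723 and 3700 counts in PS_high, against 4766, 2943 and 4575 in control, with overlapping groups and a log2 fold change of 0.04 (edgeR adjusted p = 1.0). With rows that have no annotated match included, the total was 4867, 3901 and 3975 counts in PS_high, against 6627, 5210 and 6258 in control, without overlap (log2 fold change -0.36 ± 0.16 SE; edgeR adjusted p = 1.0). Both annotated coding isoforms of Tra2a were at 0 in all 6 libraries. The counts outside the NMD isoform lay on 2 retained introns, where ENSMUST00000204013 had 2485, 1625 and 1728 in PS_high, against 2893, 2473 and 2912 in control. ENSMUST00000204818 had 889, 1665 and 1599 in PS_high, against 1872, 469 and 1662 in control.

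An assembled Tra2a isoform without an annotated match, MSTRG.32472.3, with 7 exons and 3624 bases, moved the other way. It had 958, 178 and 275 counts in PS_high, against 1861, 2267 and 1683 in control. The groups did not overlap, and the part that division of shared reads between these isoforms has in the Tra2a result was not tested. Leaving out any 1 library kept the log2 fold change at 8.69 to 8.88 but ended the call in edgeR, with adjusted p from 0.0904 without PS_high 1 to 0.353 without control 1, and from 0.0534 to 0.153 in the share test. limma on log2(FPKM + 0.1) gave a log2 difference of 4.93 with an adjusted p of 0.0736, and edgeR without a filter on low values called 0 NMD isoforms. Other fits kept the call. DESeq2 gave an adjusted p of 2.66e-21, and for shares limma on logit shares gave 0.00871 and diffSpliceDGE 0.00484. Those fits also called more isoforms of all kinds than the quasi-likelihood fits did.

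**Figure D3:**
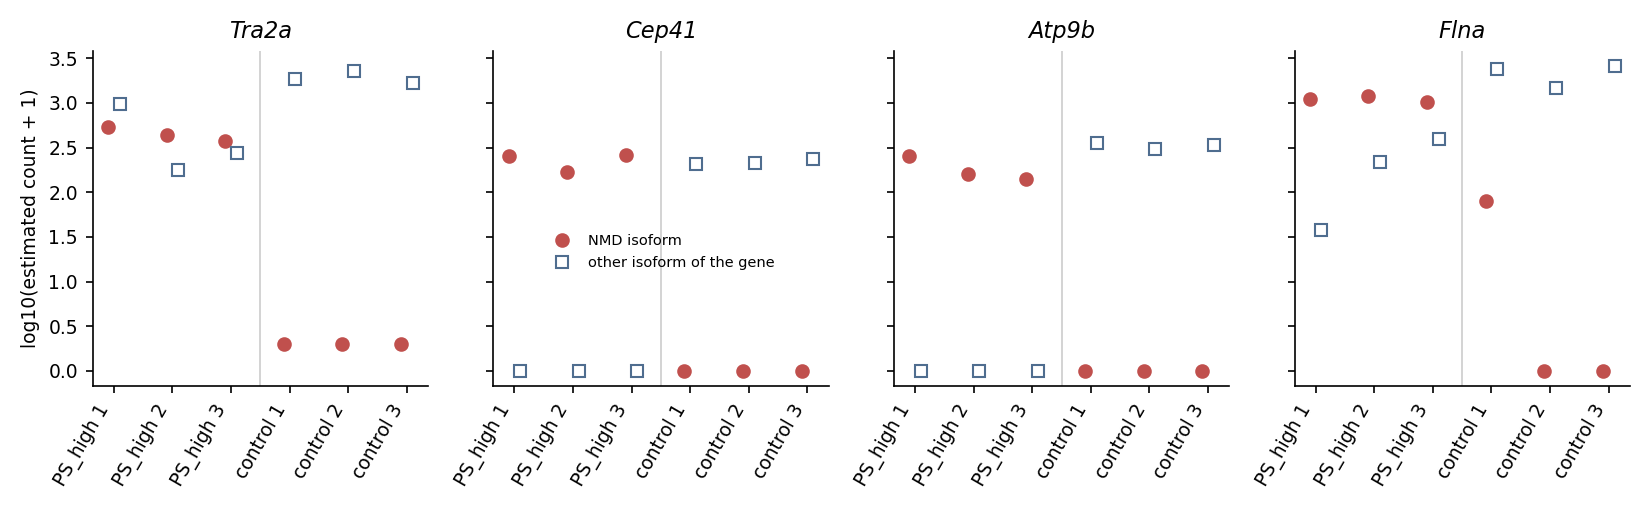
Estimated counts as log10(count + 1) of an NMD isoform (filled circles) and of another isoform of the same gene that moved the other way (open squares), per library, with PS_high left and control right, for Tra2a, Cep41, Atp9b and Flna. The Tra2a isoform has 373 to 535 counts in PS_high and 1 in each control library, and in Cep41 and Atp9b the paired isoforms are at 0 in opposite groups.

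Other NMD isoforms were at 0 throughout one group. Among the 2388 tested for share, 9 had at least 10 counts in every PS_high library and 0 in every control library (0.377%, against 0.126% of all annotated isoforms tested). Another 9 had at least 10 counts in every control library and 0 in every PS_high library (0.377%, against 0.205%). None of the 18 passed the threshold in edgeR's quasi-likelihood fits, of isoforms (5 tested) or of shares (18 tested). Other tools called some of them. DESeq2 called all 5 it tested (1.41% of all isoforms were called). diffSpliceDGE called 10 of 18 (0.503% of all), among them those of Cep41, Atp9b, Stx1a and Washc2. limma on logit shares called 14 of 18 (0.261% of all), while limma on log2(FPKM + 0.1) called 0 of 5. The 18 were picked by their counts in these same data, which favours small p-values, so these calls are no independent support. Each fold given for them is a minimum for the estimated counts only, computed with 3 counts in place of the 0 summed over that group. It does not allow for how shared reads were divided between isoforms.

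Cep41 encodes a protein of centrosomes and cilia that is needed to add glutamates to tubulin. Its NMD isoform ENSMUST00000140211, with 12 exons and 3522 bases, had 252, 166 and 257 counts in PS_high, against 0, 0 and 0 in control, at least 247-fold higher in PS_high. The coding isoform ENSMUST00000031810, with 11 exons and 3447 bases, had 0, 0 and 0 counts in PS_high, against 208, 209 and 237 in control. The 2 isoforms were each at 0 in the group where the other was seen, and the annotated gene total was 262, 175 and 272 in PS_high, against 222, 227 and 237 in control, with overlapping groups. The NMD share of Cep41 was 96.2%, 94.9% and 94.5% in PS_high and 0% in all 3 control libraries. The difference in share did not pass the threshold, with an edgeR adjusted p of 0.170, and 0.0736 when NMD isoforms of a gene were summed first.

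Atp9b, a P4-ATPase gene of the trans-Golgi network, had 2 NMD isoforms at 0 in opposite groups. ENSMUST00000225235 had 252, 160 and 139 counts in PS_high, against 0, 0 and 0 in control (at least 202-fold higher; edgeR share adjusted p = 0.230). ENSMUST00000225205 had 0, 0 and 0 in PS_high, against 354, 306 and 340 in control (at least 303-fold lower; edgeR adjusted p = 0.204). Summed over its NMD isoforms, Atp9b had 428, 227 and 173 counts in PS_high, against 379, 355 and 485 in control, so that the sums overlapped where the single isoforms did not.

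Tkfc, which encodes a kinase of dihydroxyacetone, had 92, 113 and 173 counts on ENSMUST00000236121 in PS_high, against 0, 0 and 0 in control (at least 139-fold higher; edgeR share adjusted p = 0.269). Its second NMD isoform, ENSMUST00000235285, had 18, 37 and 0 counts in PS_high, against 105, 121 and 25 in control. Tcf12, a basic helix-loop-helix transcription factor gene, had 79, 69 and 49 counts on ENSMUST00000184107 in PS_high, against 0, 0 and 0 in control (at least 72.2-fold higher; edgeR adjusted p = 0.330). Stx1a, a SNARE of synaptic vesicle fusion, had 300, 13 and 379 counts on its NMD isoform in PS_high, against 0, 0 and 0 in control, at least 254-fold higher. Its low value in PS_high 2 shows how far these counts ranged within a group. The other 4 seen in PS_high were of the nuclear import receptor gene Ipo9, of Polg2, the accessory subunit of the mitochondrial DNA polymerase, of the adaptor subunit gene Ap3m1 and of Dcaf11.

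Among those seen in control, B3galnt2, a glycosyltransferase gene for dystroglycan, had 0, 0 and 0 counts on its NMD isoform in PS_high, against 153, 134 and 120 in control (at least 123-fold lower; edgeR share adjusted p = 0.300). Taf1c, which encodes a subunit of a transcription factor of RNA polymerase I, had 0, 0 and 0 in PS_high, against 96, 89 and 94 in control (at least 84.6-fold lower; edgeR share adjusted p = 0.325). The Taf1c NMD share was 0% in PS_high and 67.6%, 49.2% and 45.0% in control. Stk11, the kinase LKB1 upstream of AMPK, had 0, 0 and 0 in PS_high, against 36, 27 and 34 in control (at least 29.4-fold lower). Washc2, a subunit gene of the endosomal WASH complex, had 0, 0 and 0 in PS_high, against 44, 117 and 99 in control (at least 78.8-fold lower). The rest were isoforms of the nucleoporin gene Ahctf1, of Trappc10, Decr2 and 2210016L21Rik, beside the Atp9b isoform above.

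For each of these 18, the isoform of the same gene with the largest opposite difference was looked up. It was protein coding for 7, another NMD isoform for 4, a retained intron for 1 and an assembled transcript without an annotated type for 6. For 7 of the 18, the opposite difference was within 2-fold of the NMD isoform's own. Picking the largest opposite difference favours such a match, and its rate for other isoforms was not computed. The matched isoforms of Ahctf1, B3galnt2, Taf1c and Tkfc had overlapping groups, and that of Ahctf1 had 0, 76 and 0 counts in PS_high. Those of Cep41, Polg2 and Atp9b did not overlap. In edgeR, no host gene of the 18 passed the threshold, and their log2 fold changes lay between -0.95 for 2210016L21Rik and 0.18 for Cep41.

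**Figure D4:**
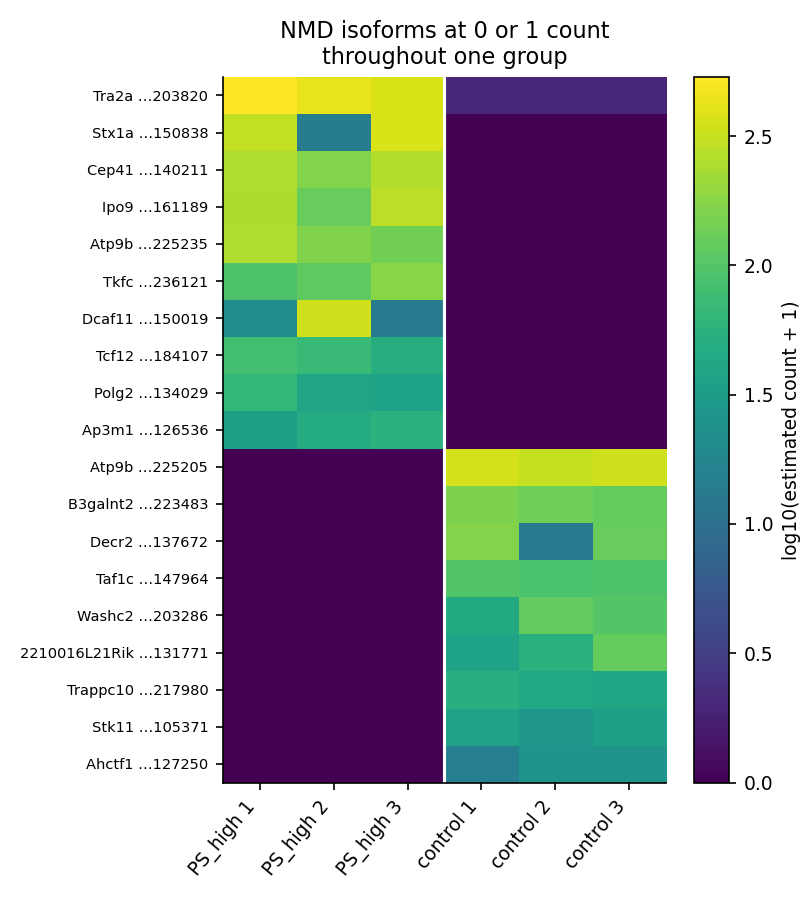
Estimated counts as log10(count + 1) of the Tra2a isoform and the 18 NMD isoforms that were at 0 in every library of one group and at 10 or more in every library of the other, with libraries in columns, PS_high left of control. Rows are named by gene and the last 6 digits of the isoform name; the upper block is seen in PS_high, led by Tra2a with 373 to 535 counts, and the lower block in control, led by an Atp9b isoform with 306 to 354.

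Flna, which encodes the actin cross-linker filamin A, showed a large exchange that did not pass the test. Its NMD isoform ENSMUST00000144429 had 1103, 1206 and 1016 counts in PS_high, against 79, 0 and 0 in control. The coding isoform ENSMUST00000114299 had 37, 219 and 391 counts in PS_high, against 2401, 1452 and 2584 in control. Both isoforms have 47 exons, with 8233 bases for the NMD isoform and 8456 for the coding one. NMD isoforms held 72.3%, 61.9% and 50.7% of the gene's counts in PS_high, against 2.58%, 0% and 0% in control. The log2 fold change was 5.55 ± 2.41 (SE; edgeR adjusted p = 1.0), and DESeq2 gave an adjusted p of 0.143. Without control 1, the only control library with counts, the fitted value was 13.19 (edgeR adjusted p = 0.353), which depends on the prior count.

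Further large differences without overlap mostly rested on uneven counts. Tspan5, a tetraspanin gene, had 2549, 4325 and 61 counts on its NMD isoform in PS_high, against 22, 29 and 38 in control. Pip5k1c, a phosphatidylinositol phosphate kinase gene of the synapse, had 371, 97 and 3021 in PS_high, against 3, 28 and 16 in control. On the lower side, C2cd2l, which encodes a lipid transfer protein at contacts of endoplasmic reticulum and plasma membrane, had 4, 4 and 12 in PS_high, against 2539, 310 and 186 in control. Cpsf7, a gene of pre-mRNA 3′ end processing, had 26, 53 and 48 in PS_high, against 1776, 72 and 2826 in control. Each of these 4 spanned more than 10-fold within one group, and none passed the quasi-likelihood test in edgeR (adjusted p = 1.0 each). DESeq2 called all 4, with adjusted p = 5.07e-06 for Tspan5, 8.24e-05 for Pip5k1c, 3.95e-08 for C2cd2l and 0.000497 for Cpsf7. For shares, diffSpliceDGE gave adjusted p = 0.0431 for Tspan5, 0.385 for Pip5k1c, 0.0185 for C2cd2l and 0.0815 for Cpsf7. Setmar, Antxr1 and Prdx6 on the lower side, and Idh3b and Cenpu on the higher side, were likewise not called in edgeR's quasi-likelihood fits. DESeq2 called those of Setmar, Antxr1 and Cenpu (adjusted p = 5.65e-06, 0.00114 and 0.00178), and it called 1.41% of all isoforms. The isoforms of this paragraph were named for large changes without overlap in these same data. That choice favours small p-values, so these calls are no independent support.

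Across all tested NMD isoforms, differences were wide but centred on 0. The median log2 fold change was -0.01, as for all isoforms (-0.01), while 30.8% of NMD isoforms lay beyond 1 in size, against 16.8% of all isoforms. At an unadjusted p under 0.05, 19 NMD isoforms were higher and 36 lower in PS_high (1.77% and 3.36% of 1072), against 1.85% and 1.73% of all isoforms. Without overlap of CPM between the groups were 33 higher and 63 lower NMD isoforms (3.08% and 5.88%), against 3.85% and 4.31% of all isoforms. For the share in the gene, 38 were higher and 58 lower at an unadjusted p under 0.05 (1.59% and 2.43% of 2388), against 1.85% and 1.89% of all annotated isoforms tested. Each of these 3 counts, which can share members, thus held more lower than higher NMD isoforms. Over all isoforms, the same counts were near balance. Other fits differed. At an unadjusted p under 0.05, limma on logit shares had 47 higher and 68 lower (1.97% and 2.85%, against 1.94% and 1.93% of all). diffSpliceDGE had 152 and 155 (6.39% and 6.51%, against 3.3% and 3.58%). At an adjusted p under 0.05, diffSpliceDGE called 15 higher and 12 lower, limma on logit shares 8 and 7, and DESeq2 9 and 15. No test of the imbalance in the 3 counts was made.

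Host genes as a whole were centred on 0. The median log2 fold change of 3627 host genes tested was -0.01, as over all 19759 genes (-0.01). edgeR called 0 genes in all, 694 were under an unadjusted p of 0.05 (3.51%), and DESeq2 called 89.

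When NMD isoforms were summed per gene, a step chosen after seeing the data, edgeR called the share of Tra2a alone (adjusted p = 0.00743) among 1928 genes (0.0519%), against 6 of 22010 sums over isoforms of one type (0.0273%). Behind Cep41, Tcf12, Taf1c, B3galnt2 and Ap3m1, the next by p was Ivns1abp, an actin-binding Kelch protein gene. Its NMD share was 33.7%, 44.7% and 15.1% in PS_high, against 4.10%, 4.15% and 2.27% in control (adjusted p = 0.645). Aftph, a trafficking gene, had 48.5%, 39.7% and 29.6% in PS_high, against 18.4%, 21.3% and 19.0% in control (adjusted p = 0.818). Diablo, which encodes a mitochondrial protein that antagonises inhibitors of apoptosis, had 16.1%, 26.9% and 23.0% in PS_high, against 43.6%, 41.6% and 48.1% in control (adjusted p = 0.844). These genes were chosen after their values were seen, their groups did not overlap, and none passed the threshold.

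SR proteins and their relatives, the best known makers of poison exon isoforms, were described as a list. NMD isoforms were annotated in 18 of its 20 genes, 31 isoforms in all, of which 9 were at 0 in all 6 libraries. edgeR tested 7 of the 31 as isoforms and called 1, Tra2a (0.00433% of all isoforms were called), with a median log2 fold change of -0.0044 over the 7. Srsf2 had 9.68%, 8.92% and 13.5% of its counts on NMD isoforms in PS_high, against 13.9%, 20.4% and 12.3% in control, with overlapping groups. Its main NMD isoform alone had 130, 102 and 162 counts in PS_high, against 190, 210 and 186 in control, a log2 fold change of -0.44 ± 0.27 (SE; edgeR adjusted p = 1.0), although no PS_high value reached the control values. Srsf3 varied widely in both groups, with 750, 915 and 36 counts on its NMD isoform in PS_high, against 0, 950 and 3282 in control. Srsf9 kept a high NMD share, 61.7%, 62.0% and 50.8% in PS_high, against 44.7%, 51.5% and 81.9% in control. Tra2b, the other Transformer-2 gene, had 0%, 3.30% and 1.06% in PS_high, against 3.61%, 0% and 0% in control. Clk1, a kinase that phosphorylates SR proteins, had 15.7%, 17.9% and 0% in PS_high and 0% in all 3 control libraries.

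**Figure D5:**
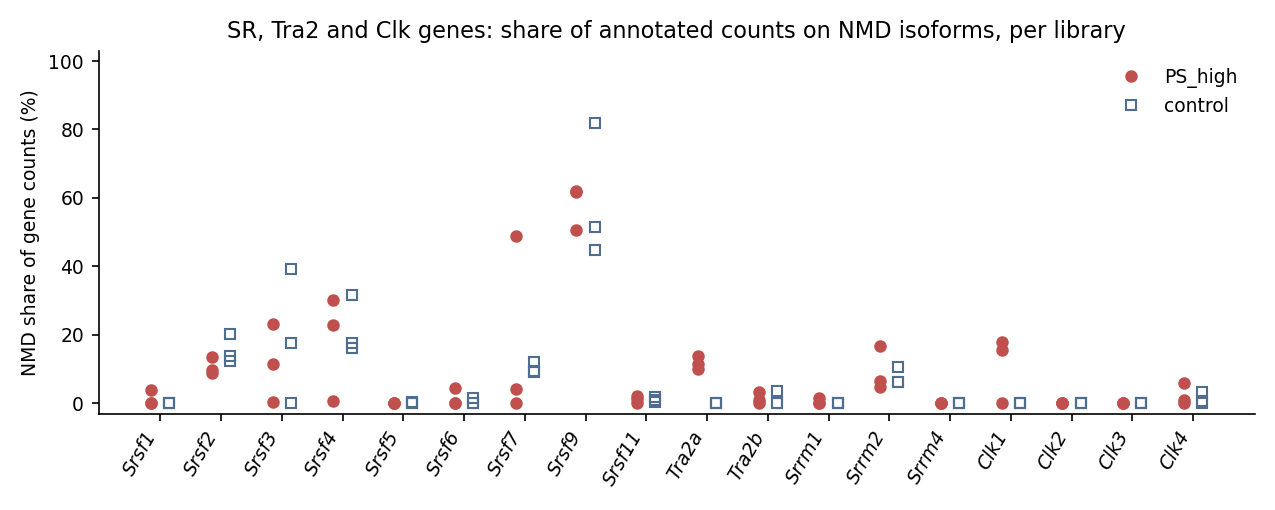
NMD share of annotated counts, in percent, for 18 genes of SR proteins, Tra2 proteins and Clk kinases, with 1 point per library, PS_high as filled circles left of control as open squares. Tra2a is separated, at 10.1% to 13.7% in PS_high and below 1% in control, while Srsf2, Srsf3, Srsf4 and Srsf9 overlap.

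Other RNA-binding protein genes had no NMD isoform called in edgeR. The hnRNP and PTB genes had 46 NMD isoforms in 17 genes, 10 of them tested as isoforms with 0 calls (0.00433% of all isoforms were called). Genes of neuronal RNA-binding proteins had 13 in 9 genes, 5 of them tested as isoforms, also with 0 calls. Hnrnpa1 had 96.3%, 70.3% and 11.7% of its counts on NMD isoforms in PS_high, against 19.9%, 95.5% and 15.7% in control, so that each group held both a high and a low library. Tardbp, which encodes TDP-43, had 10 annotated NMD isoforms with 3.94%, 9.80% and 7.78% of its counts in PS_high, against 6.73%, 12.1% and 5.28% in control. Khdrbs3, a neuronal splicing regulator gene, kept most of its counts on NMD isoforms, 72.4%, 63.1% and 87.2% in PS_high, against 83.9%, 78.2% and 62.7% in control.

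The core spliceosome list had 44 NMD isoforms in 20 genes, and in edgeR 8 were tested as isoforms with 0 calls and none at an unadjusted p under 0.05, against 1.85% higher and 1.73% lower of all isoforms. The ribosomal protein list had 21 in 15 genes, 9 of them tested, also with 0 calls and none at that unadjusted p. Rpl12 illustrates the pattern within groups, with 0%, 0% and 35.1% on NMD isoforms in PS_high, against 0%, 0% and 30.7% in control.

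Synaptic protein and channel genes had 28 NMD isoforms in 18 of 51 genes, 9 tested in edgeR, with 0 calls (0.00433% of all isoforms) and 1 higher at an unadjusted p under 0.05 (1.85% of all isoforms), so that these counts show nothing particular to the list. Gria2, an AMPA receptor subunit gene, had 35, 19 and 129 counts on its NMD isoform in PS_high, against 39, 68 and 6201 in control, where control 3 alone was high. The list of transcripts known as NMD substrates under stress had 6 NMD isoforms in 2 of 20 genes. In edgeR, 2 were tested as isoforms and 3 for share, with 0 calls and none at an unadjusted p under 0.05. Eif4a2, of this list, had 11.1%, 5.60% and 4.48% in PS_high, against 12.3%, 11.1% and 12.0% in control. The control 2 value includes 374 counts on ENSMUST00000123413, which had 0 in every other library.

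The genes of the decay machinery were also compared, by their annotated totals. Of 26 such genes tested in edgeR 0 were called, as over all genes (0%), and none was under an unadjusted p of 0.05, against 3.51% of all genes. DESeq2 called 0 of them too. Their median log2 fold change was 0.00, with 13 above 0. Upf1, the central helicase, had 0.489 ± 0.144 FPKM in PS_high and 0.822 ± 0.214 FPKM in control (SD, n = 3 each; log2 fold change -0.74 ± 0.31 SE, edgeR adjusted p = 1.0). Smg1, the kinase that phosphorylates Upf1, had 13.8 ± 3.54 FPKM in PS_high and 12.6 ± 1.29 FPKM in control. Xrn1, the exonuclease that degrades decapped RNA, had 13.5 ± 1.52 FPKM in PS_high and 10.7 ± 3.73 FPKM in control. Of 10 genes of the exon junction complex and its partners, 9 were tested in edgeR and 0 called, none under an unadjusted p of 0.05.

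Some machinery genes carry NMD isoforms of their own. The NMD isoform of Smg6, the endonuclease of the pathway, had 788, 0 and 0 counts in PS_high, against 0, 0 and 881 in control, which is 1 library of each group. That of Smg5 had 114, 82 and 63 counts in PS_high, against 75, 219 and 126 in control, with overlapping groups.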

How the data were processed

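RNA of 6 prefrontal cortex samples was sequenced from total RNA after Ribo-Zero depletion with a stranded kit, per the labels' protocols. HISAT2, StringTie and TopHat are the tools in the submitters' processing notes, without a version. The annotation and the genome build were not given in the sources used. The authors deposited an estimated count and an FPKM value per isoform. An isoform with 0 counts carries 0.0001 FPKM in the deposited table. Of the deposited circular RNA table, the back-splice read counts assigned to NMD isoforms were used. The number of exons and the length of an isoform are other columns of the deposited table.

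NMD isoforms were the rows of class code "=" and type nonsense-mediated decay. The plan was for estimated counts, which proved to be whole numbers. edgeR 4.0.16 (R 4.3.3; quasi-likelihood test, TMM, two-sided, Benjamini-Hochberg over the whole table, threshold 0.05) tested isoforms averaging 0.5 FPKM or more. The share fit used log(annotated gene total + 1) as an offset, for genes with at least 100 and isoforms with at least 10 mean counts. The gene fit used counts summed over annotated rows. SE is the absolute log2 fold change divided by the square root of F. Where a group was at 0, the fitted log2 depends on the prior count and is not read as a size. Values of single libraries were compared by exact permutation over samples.

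Members, lists and rules were chosen with earlier results of these data known. Named isoforms were those called; 8 higher and 8 lower of largest change without overlap and with at least 1 FPKM in a group; the 10 of highest mean FPKM; 5 and 5 by smallest p for share; and up to 4 per list. Alternatives were DESeq2 1.42.0, limma 3.58.1 (on log2 FPKM with pseudocounts 0.1 and 1, and on logit shares), edgeR's diffSpliceDGE, no filter, other totals, a replicate block, each library left out, and NMD isoforms summed per gene, the last added after the data were seen. Replicate numbers only name samples: deviations of same-numbered samples correlated at 0.0149, 0.0064 and 0.0057.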

Additional observations from a re-analysis of the deposited data

How the results depend on the processing

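The call of 1 NMD isoform depended on the fit. The number called among single isoforms was 24 with DESeq2, 0 with limma at either pseudocount, 0 without a filter and 0 to 0 with a library left out, against 1 in edgeR. Over all isoforms it was 978 with DESeq2, 22 and 20 with limma at pseudocounts 0.1 and 1, 0 without a filter and 0 to 1 with a library left out, against 3. For shares, limma on logit shares called 15 NMD isoforms, diffSpliceDGE 27 and the fits with a library left out 0 to 0, against 1. Among genes, DESeq2 called 89, sums over all rows of a gene 5, and fits with a library left out 0 to 11, against 0. With the replicate block, edgeR called 0 NMD isoforms (89 at an unadjusted p under 0.05), 0 of all isoforms (2985 unadjusted) and 0 NMD shares (72 unadjusted). The replicate numbers do not pair the samples, so calls lost under the block are not a weaker effect. The cause of these differences was not tested.

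The NMD share of counts was lower in PS_high under every alternative run, and so was the number of NMD isoforms with at least 10 counts (-142 to -39.3). Differences in the share of annotated counts were -0.117 to -0.0306 percentage points with a library left out. Without the 10 isoforms of highest mean count the difference was -0.0664. On other bases it was -0.0328 for the share of all counts and -0.0935 for the share of annotated FPKM. Within genes with NMD and coding isoforms alone, the share was 6.33% in PS_high and 6.59% in control, a difference of -0.259 (exact two-sided permutation p = 0.5). Of 49 named isoforms tested, 32 kept their sign with DESeq2 size factors, limma at pseudocount 0.1, the replicate block and each library left out, and 17 did not, and none of the 17 was called. Gm20716 was -1.88 with limma at pseudocount 0.1 and -0.91 with the replicate block, against 0.16 in edgeR. Srsf3 was 0.25 with the block, against -1.14. Hnrnpa1 was 0.0083 with DESeq2 size factors and 0.042 with limma, against -0.01. With a library left out, log2 fold changes ranged from -0.07 to 0.17 for Atp2a2, -0.48 to 0.053 for Pum2, -7.51 to 0.92 for Prkcb, -0.37 to 0.75 for Gm20716 and -0.30 to 0.24 for Epha4. The ranges were -11.10 to 10.96 for Smg6, -1.82 to 0.39 for Srsf3, -0.17 to 0.34 for Hnrnpll, -0.53 to 1.18 for Hnrnpa1, -0.049 to 0.34 for Khdrbs3 and -0.78 to 1.71 for Qk. They were -0.61 to 0.46 for Luc7l, -10.13 to 9.20 for Luc7l2, -10.23 to 10.65 for Rpl12, -0.69 to 0.69 for Rpsa, -6.14 to 0.30 for Gria2 and -0.66 to 0.0010 for Eif4a2. Both ends for Smg6, Luc7l2 and Rpl12 come from fits with a whole group at 0, so they depend on the prior count and are not sizes.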

Other observations

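The deposited table of circular RNAs names a linear isoform for each circle. NMD isoforms were named for 840 circRNAs, on 421 isoforms. Their back-splice reads numbered 1249, 868 and 1056 in PS_high, against 1068, 1081 and 1071 in control. These were 6.28%, 5.54% and 6.09% of all back-splice reads in PS_high, against 5.48%, 6.16% and 5.37% in control, with overlapping groups (exact two-sided permutation p = 0.4). Among these 840 circRNAs, the most abundant was assigned to an NMD isoform of Hnrnpu, which encodes a nuclear scaffold and RNA-binding protein. It had 133, 87 and 74 reads in PS_high, against 101, 66 and 60 in control. The third most abundant of them was assigned to Ppp1cb, which encodes a catalytic subunit of protein phosphatase, with 80, 54 and 73 reads in PS_high, against 58, 86 and 76 in control. A back-splice read lies on exons that the NMD isoform can share with other isoforms of the gene, so the named isoform need not be the one that was circularised.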
